A study of Mus musculus with 8 samples.

Results

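InvC∆Bor and ∆BorC1 are mouse mutants of the Kcnj2 and Sox9 locus that both lack the boundary between these genes and carry the gene-poor stretch next to Sox9, the Sox9 desert, in opposite orientations. Their contact maps were set against each other to ask which contacts of the desert stay with its DNA sequence when it is turned around and which stay with the place along the chromosome. The comparison uses 2 of the 8 libraries of the series, 1 per genotype. It covers 211 of the 587 mapped bins of 10 kb, chromosome 11 from 110920001 to 113030000 (mm9), and 111 of these bins make up the inverted stretch.

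A topologically associating domain (TAD) is a stretch of chromosome whose parts meet each other more often than they meet the neighbouring stretch. Cohesin is thought to form domains by extruding loops of chromatin until it meets the protein CTCF, whose binding sites have a direction, so the orientation of a sequence can matter for the loops it anchors. Sox9 is a transcription factor without which cartilage does not form, and its limb enhancers are spread over a large gene desert. Kcnj2 encodes an inward rectifier potassium channel and belongs to the neighbouring domain.

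The assay was capture Hi-C: crosslinked, cut and ligated chromatin of a chosen region was enriched, and each read pair counts a contact between 2 places. Both libraries came from forelimb and hindlimb buds of E12.5 embryos, homozygous for the edit and made from G4 embryonic stem cells. Each condition was a single library of limb buds from 3 to 8 embryos, so all limb cell types are mixed in a map. ∆BorC1 carries deletions of the boundary and of C1 with the desert in reference order, and InvC∆Bor carries the inversion and the boundary deletion. The label of InvC∆Bor does not name C1, so desert orientation and C1 cannot be told apart in this comparison, and the labels do not say what C1 is. Another 3 libraries in reference order whose labels name further deletions (∆BorC1-2, ∆BorC1-4 and ∆CTCF) show how far uninverted maps differ from ∆BorC1. InvC, which has the inverted order with the boundary still present in it, is quoted where it helps. The labels of ∆BorC1-2 and ∆BorC1-4 name C1 too and that of InvC does not. That of ∆CTCF does not name C1 and does not say whether C1 is deleted in it. These libraries thus do not separate orientation from C1.

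∆BorC1 held 4901143 raw contacts and InvC∆Bor 3056502, of which 37.7% and 35.7% joined 2 places within the interval. Since each genotype is a single library, no difference could be tested. Every interval below is a 95% interval for counting error only, and the differences among uninverted libraries are the only measure of how maps vary otherwise.

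The order of the desert was checked first, from the coverage of each bin, which depends on its sequence. Over 109 inner bins the coverage of InvC∆Bor correlated with that of ∆BorC1 at r = 0.0447 at the same position and at r = 0.912 when read in mirrored order, by which a position x holds the sequence at 223.899 Mb minus x. Moving the mirror by 10 kb to either side gave 0.270 and 0.103. The 3 other uninverted libraries reached 0.994 to 0.998 at the same position. The deposited InvC∆Bor map is thus arranged in inverted order, and the mirrored bins are offset by 1 kb against the grid. The boundary bin, 111390001 to 111400000, held 4 contacts in ∆BorC1, and the bin at 112500001 to 112510000, to which the mirror moves it, held 131 in InvC∆Bor against 20049 in InvC. These bins, their neighbours and others of low coverage were left out, 13 in all, of which 5 lay in the interval.

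Below, the desert is the sequence from 111.40 to 112.51 Mb, the Kcnj2 side runs from Kcnj2 (110.92 Mb) to the deleted boundary (111.39 Mb), and the Sox9 gene side runs from the far end of the inversion (112.51 Mb) over Sox9 (112.64 Mb) to the right edge of its domain (113.03 Mb). RefSeq lists 7 genes between Kcnj2 and Sox9, of which 5 are long non-coding RNAs, 1 is a pseudogene and 1, Gm11677, is a protein-coding model. In ∆BorC1 the boundary-side end of the desert faces Kcnj2, and in InvC∆Bor it faces Sox9.

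The 550 kb next to the deleted boundary (111.40 to 111.95 Mb) and the 550 kb next to Sox9 (111.96 to 112.51 Mb) are called the boundary-side and the Sox9-side segment. Which of them met each gene more was exchanged in the inverted map. The shares are of raw contacts and are not corrected for distance, which favours the nearer segment. A 30 kb window at Sox9 had 8249 contacts with the boundary-side segment and 12161 with the Sox9-side segment in ∆BorC1, so 40.4% lay on the boundary-side segment (interval 39.7 to 41.1). InvC∆Bor had 5763 and 3844, which put 60.0% on that segment (59.0 to 61.0). Read by position, the segment nearer to Sox9 held 59.6% of these contacts in ∆BorC1 and 60.0% in InvC∆Bor, with overlapping intervals. The uninverted libraries had 59.2% to 60.6% on the near segment.

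Kcnj2 showed the same exchange, though less completely. Its boundary-side segment held 60.2% of its desert contacts in ∆BorC1 (59.3 to 61.2; 6225 and 4114 contacts) and 43.9% in InvC∆Bor (42.8 to 45.0; 3615 and 4623 contacts). The segment nearer to Kcnj2 thus held 60.2% and 56.1%. ∆BorC1-4, uninverted, had 56.9% on the near segment and ∆BorC1-2 had 58.4%, so the value of InvC∆Bor lay below those of the uninverted maps, with an interval (55.0 to 57.2) that overlapped that of ∆BorC1-4 (56.2 to 57.6).

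The whole flanking sides showed the exchange with far more contacts. From the Kcnj2 side 62.5% of the contacts with both segments fell on the boundary-side segment in ∆BorC1 and 39.4% in InvC∆Bor. From the Sox9 gene side it was 39.8% and 59.7%.

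To separate place from sequence, the log2 ratio of balanced contacts with the boundary-side segment over the Sox9-side segment was taken in each library. Since the inversion swaps the near and far segments and leaves their sequence the same, the difference between the libraries divided by 2 is a position component and their mean a sequence component. For the Kcnj2 side the log2 ratio was 0.86 in ∆BorC1 and -0.56 in InvC∆Bor, which gives a position component of 0.71 (0.70 to 0.72) and a sequence component of 0.15 (0.14 to 0.16). The Sox9 gene side had -0.53 and 0.66, a position component of -0.60 (-0.61 to -0.58) and a sequence component of 0.07 (0.06 to 0.08). Position was the larger part on both sides, but these ratios are not divided by the mean at each distance. The fall of contact with distance is thus part of the position component. Against each library's own mean at the same distance, the far segment was the higher one. From the Kcnj2 side the boundary-side and Sox9-side segments stood at 0.983 and 1.28 in ∆BorC1, and 1.62 and 1.02 in InvC∆Bor. From the Sox9 gene side they stood at 1.87 and 1.13, and 0.968 and 1.38. With ∆BorC1-2, ∆BorC1-4 or ∆CTCF as the uninverted library the position components ran from 0.62 to 0.69 and from -0.64 to -0.57, and the sequence components from 0.06 to 0.12 and from 0.02 to 0.09. In raw counts the sequence component of the Sox9 gene side became -0.02 and that of the Kcnj2 side 0.06, so their size and, for the Sox9 gene side, their sign depend on the balancing.

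At the genes themselves the sequence component was larger on the balanced scale. The 30 kb window at Kcnj2 had a position component of 0.49 (0.45 to 0.53) and a sequence component of 0.21 (0.17 to 0.25), and that at Sox9 had -0.57 (-0.61 to -0.54) and 0.13 (0.09 to 0.16). At the domain edge they were -0.35 (-0.39 to -0.31) and 0.20 (0.15 to 0.24). The flank left of the interval gave 0.22 for both components, and the flank right of it -0.22 and 0.02. These sequence components, too, depend on the balancing. In raw counts, an alternative added after the data were seen, they became 0.12 at Kcnj2, 0.01 at Sox9, 0.11 at the domain edge and 0.13 for the left flank, and turned to -0.07 for the right flank. The position components became 0.48, -0.57, -0.35, 0.23 and -0.22.

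The ends of the desert showed the exchange of shares most plainly, again without a correction for distance. Of the contacts that the 100 kb at the boundary-side end (111.41 to 111.51 Mb) made with both sides, 63.6% went to the Kcnj2 side in ∆BorC1 and 25.1% in InvC∆Bor. For the Sox9-side end (112.40 to 112.50 Mb) it was 21.0% and 65.9%. Observed over expected contact is the balanced contact of a pair divided by the library's own mean at that distance, so a value of 1 marks average contact. In InvC∆Bor the boundary-side end stood at 1.94 times expectation with the Kcnj2 side, against 0.913 in ∆BorC1 at the same sequence. The Sox9-side end stood at 1.65 with the Sox9 gene side, against 0.900. The end at the same far place in ∆BorC1 was above 1 as well, at 1.46 with the Kcnj2 side and 2.02 with the Sox9 gene side. By position the value was thus higher in InvC∆Bor for the Kcnj2 side and lower for the Sox9 gene side.

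The profile of Sox9 along the desert differed in shape as well as in direction. In ∆BorC1 the observed over expected contact of Sox9 with slices of 100 kb stayed between 2.37 and 2.82 from the boundary-side end to 112.10 Mb. It dropped from 2.62 (2.53 to 2.72) in the slice 112.00 to 112.10 Mb to 1.63 (1.56 to 1.70) in the next and reached 0.970 nearest to Sox9. InvC∆Bor had no such drop: by sequence its slices ran from 1.06 (1.00 to 1.11) at the boundary-side end, now next to Sox9, through 1.72 in the slice from 111.90 Mb to 2.08 (1.92 to 2.25) at the far end.

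The drop at 112.10 Mb was followed in every library as the ratio of these 2 slices, chosen after the profile was seen. ∆BorC1 had 1.61 (1.52 to 1.70). The other uninverted libraries had 1.59 (∆BorC1-2), 1.38 (∆CTCF) and 1.31 (∆BorC1-4). In InvC∆Bor the ratio was 1.08 (0.976 to 1.19) at the same sequence and 1.07 (0.972 to 1.17) at the same position. A drop of the size in the uninverted libraries was thus found neither at the sequence nor at the place. The ratio is not corrected for the slope of the profile, which by sequence runs the opposite way in InvC∆Bor. A smaller local drop against that slope was not tested. InvC had 1.06 (0.953 to 1.18) at the same sequence and 1.14 (1.02 to 1.26) at the same position.

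**Figure D1:**
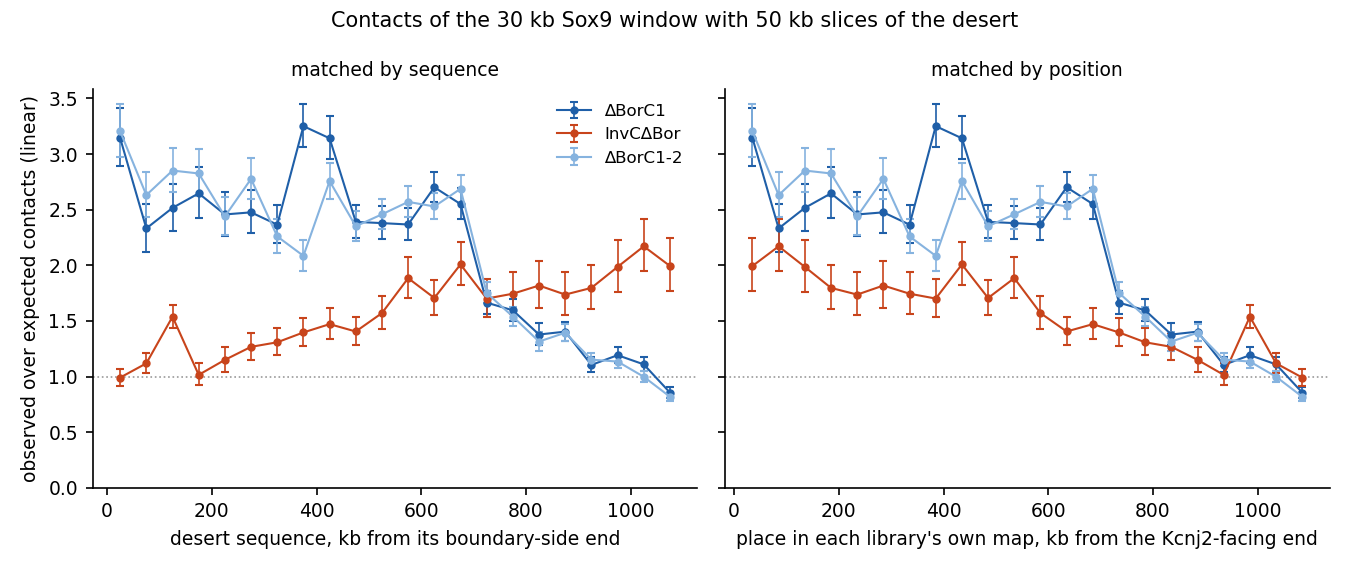
Observed over expected contact (linear scale) of the 30 kb Sox9 window with 22 slices of 50 kb along the desert, against desert sequence in kb from its boundary-side end (left) and against place in each map in kb from the end facing Kcnj2 (right). Points are single libraries and bars are counting intervals. Matched by sequence the profiles of ∆BorC1 and InvC∆Bor cross (r = -0.66), matched by position both fall towards Sox9 (r = 0.87), and the drop of ∆BorC1 beyond the slice that begins at 112.05 Mb is not seen in InvC∆Bor.

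Over the 22 slices of 50 kb the Sox9 profile of InvC∆Bor correlated with that of ∆BorC1 at r = -0.66 by sequence and 0.87 by position, where ∆BorC1-2 reached 0.955. For the domain edge it was -0.61 and 0.65, with 0.948 in ∆BorC1-2. The slices share their library and their trend with distance, so these values are descriptions.

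Sox9 also had local peaks in the desert of ∆BorC1 whose observed over expected contact was lower in InvC∆Bor. The bin at 111.82 Mb had 268 contacts with Sox9 in ∆BorC1, 3.90 times expectation (3.45 to 4.40) and 1.47 times its neighbours 30 to 50 kb away (1.29 to 1.68). The other uninverted libraries stood at 3.90 (∆CTCF), 3.50 (∆BorC1-2) and 2.96 (∆BorC1-4). InvC∆Bor had 99 contacts for the same sequence, 1.71 times expectation (1.39 to 2.08) and 1.27 times its neighbours (1.02 to 1.57). The level was thus below that of all uninverted libraries, while the excess over the neighbours had an interval that overlapped that of ∆BorC1.

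At 111.76 Mb ∆BorC1 had 244 contacts with Sox9, 4.53 times expectation (3.98 to 5.13) and 1.70 times the neighbours. InvC∆Bor had 112 contacts, 1.58 times expectation and 1.15 times the neighbours (0.935 to 1.41). Among the uninverted libraries this peak was found in ∆BorC1 alone: the ratio to the neighbours was 0.981 in ∆BorC1-2, 0.872 in ∆BorC1-4 and 0.972 in ∆CTCF. At 112.07 Mb, next to the drop, Sox9 stood at 3.16 in ∆BorC1 and 3.28 in ∆BorC1-2, against 2.12 (1.73 to 2.57) in InvC∆Bor, 1.79 in ∆BorC1-4 and 2.12 in ∆CTCF. These bins were chosen after the profiles were seen.

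The profile of Kcnj2 held a peak in InvC∆Bor that ∆BorC1 lacked. In ∆BorC1 its observed over expected contact ran from 1.16 (1.09 to 1.22) in the first 100 kb of the desert to 1.74 (1.61 to 1.88) in the last. In InvC∆Bor the first 100 kb of the sequence, now the farthest from Kcnj2, stood at 2.34 (2.15 to 2.55), the next at 3.08 (2.87 to 3.29) and the last, now next to Kcnj2, at 1.16 (1.09 to 1.24). At the near end of the map the libraries thus had like values of 1.16 and 1.16 with different sequence.

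**Figure D2:**
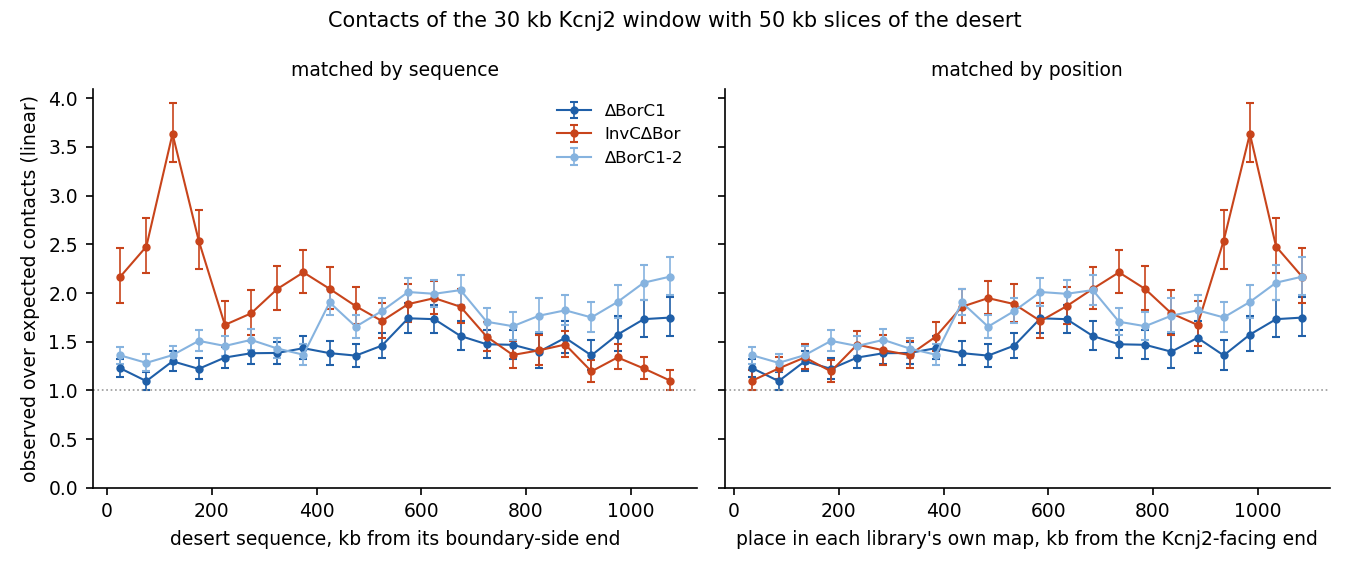
Observed over expected contact (linear scale) of the 30 kb Kcnj2 window with 22 slices of 50 kb along the desert, against desert sequence in kb from its boundary-side end (left) and against place in each map in kb from the end facing Kcnj2 (right). Points are single libraries and bars are counting intervals. The highest point of InvC∆Bor is 3.64 times expectation, in the slice that begins 100 kb from the boundary-side end, where ∆BorC1 has 1.30 by sequence. Its interval lies above that of ∆BorC1 in 10 of 22 slices by sequence and in 9 by position. For the Sox9 window it lies above in 6 and below in 14 by sequence.

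Intervals also lay apart outside the peak. Of the 22 slices of 50 kb, InvC∆Bor had an interval wholly above that of ∆BorC1 in 10 by sequence and 9 by position. It was wholly below in 2 and 0. The uninverted ∆BorC1-2 also lay wholly above ∆BorC1 in several slices and overlapped it in the others. In the slice from 111.80 Mb it had 1.90 (1.78 to 2.04) against 1.38 (1.26 to 1.51). In that from 112.05 Mb it had 2.03 (1.88 to 2.19) against 1.56 (1.41 to 1.72). Gaps outside the peak were thus not particular to the inverted map. Such gaps were common at the other windows too. Sox9 had 6 above and 14 below by sequence, and 2 and 16 by position. The domain edge had 5 and 14, and 2 and 13.

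The peak lay in the block 111.50 to 111.55 Mb of the sequence, which in InvC∆Bor is found between 112.35 and 112.40 Mb. Kcnj2 had 565 contacts with it in InvC∆Bor, 3.64 times expectation (3.34 to 3.95), and the blocks on either side stood at 2.48 and 2.54. ∆BorC1 had 692 contacts with the same sequence, 1.30 times expectation (1.20 to 1.40), between blocks at 1.10 and 1.22. The other uninverted libraries had 1.36 (∆BorC1-2), 1.25 (∆BorC1-4) and 1.69 (∆CTCF). InvC, with the same order as InvC∆Bor, had 4.02 (3.75 to 4.31). Both inverted libraries were high and all 4 uninverted libraries low, with no overlap. ∆BorC1-2 and ∆BorC1-4 name C1 in their labels, like ∆BorC1, and neither inverted label does. The label of ∆CTCF does not name C1 either and does not say whether C1 is deleted in it. Orientation and C1 thus cannot be told apart in this split either.

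At 10 kb the peak was sharpest at 111.51 Mb, a bin chosen after the profile was seen. InvC∆Bor had 160 contacts between it and Kcnj2, 4.88 times expectation (4.15 to 5.70) and 2.03 times the neighbours (1.68 to 2.45). In ∆BorC1 there were 121 contacts, 1.22 times expectation (1.01 to 1.46) and 1.03 times the neighbours (0.844 to 1.24). The ratio to the neighbours was 1.98 in InvC and between 1.01 and 1.11 in ∆BorC1-2, ∆BorC1-4 and ∆CTCF.

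Coverage of that bin also differed between the libraries. Relative to the median bin, the bin at 111.51 Mb had 1.10 to 1.11 in the 4 uninverted libraries, against 1.49 in InvC∆Bor and 1.26 in InvC, while its neighbour at 111.50 Mb ran from 1.42 to 1.56 in these 6 libraries. BorKnockIn, whose label names a boundary knock-in and not C1, had 1.67. Its desert is in reference order but shifted by 20 kb in the deposited map (coverage r = 0.907 after the shift, 0.0846 before), and it was read with that shift, a step added after the data were seen. There Kcnj2 stood at 1.16 (1.08 to 1.24) with the block 111.50 to 111.55 Mb and at 1.26 times the neighbours (1.08 to 1.47) in the bin at 111.51 Mb. The block value was below those of the 4 uninverted libraries. The ratio to the neighbours was above theirs, with overlapping intervals. BorKnockIn carries other edits, and the part of C1 in the peak was not tested.

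Contacts of this block with other parts also differed. Over all pairs of 50 kb blocks of the map with at least 50 contacts in both libraries, matched by sequence, 7.23% were more than 1.5-fold higher and 5.69% more than 1.5-fold lower in InvC∆Bor. Among its pairs with blocks of the Kcnj2 side, 9 of 9 were more than 1.5-fold higher in InvC∆Bor than in ∆BorC1 at the same sequence, with a median log2 difference of 1.34. With the left flank it was 24 of 29, and with the other desert blocks 9 of 21 were higher and 1 was lower. With the Sox9 gene side 10 of 10 were lower and with the right flank 18 of 18. The counts with the sides and flanks were not particular to this block: with the Kcnj2 side its neighbours had medians of 1.11 and 0.96, and with the Sox9 gene side -0.99 and -1.25 against its own -1.06. Its highest pair was with the block that holds Kcnj2, 110.92 to 110.97 Mb, at 3.45 times expectation (3.21 to 3.70; 772 contacts) against 1.22 (1.14 to 1.30; 965 contacts) in ∆BorC1 at the same sequence and 1.56 (1.42 to 1.72) in ∆BorC1 at the same position.

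Next came the pair with the block at 111.27 to 111.32 Mb, on the Kcnj2 side of the deleted boundary (111.39 Mb). It had 2.62 (2.43 to 2.83) against 0.854 (0.808 to 0.903) by sequence and 1.28 by position. The pair with 110.97 to 111.02 Mb had 2.47 against 1.11 and 1.58. In InvC these 3 pairs stood at 3.77, 2.86 and 2.98, and in the uninverted libraries they ran from 0.839 to 1.74. Neither the sequence nor the place alone gave such values in ∆BorC1.

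Inside the desert the highest pairs of InvC∆Bor also had this block at one end. With the last 3 blocks at the Sox9-side end (112.35 to 112.50 Mb) it stood at 2.04, 2.00 and 1.92 in InvC∆Bor, against 1.30, 1.37 and 1.36 in ∆BorC1 at the same sequence and the same distance. ∆BorC1-4 came closest among uninverted libraries with 1.53, 1.67 and 1.55, and InvC had 2.22, 2.28 and 2.27. The distance inside the desert does not change with orientation, so both libraries were set against the expected contact of the same distance. In ∆BorC1 the highest pair inside the desert joined its outermost blocks, 111.40 to 111.45 Mb with 112.45 to 112.50 Mb, at 1.54 (1.41 to 1.68), which was 1.68 (1.52 to 1.87) in InvC∆Bor. The next were 111.40 with 112.40 Mb at 1.47 and 111.75 with 112.45 Mb at 1.46.

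The highest desert pairs of ∆BorC1 with the Sox9 gene side were lower after inversion in both orders. The first joined 111.75 to 111.80 Mb with the block of Sox9, 112.61 to 112.66 Mb, at 2.95 (2.82 to 3.10; 1715 contacts). InvC∆Bor had 1.36 (1.27 to 1.46; 827 contacts) for the same sequence and 1.62 at the same position, and the other uninverted libraries had 1.97 to 2.17 for this sequence. The same desert block with the block just before the domain edge, 112.96 to 113.01 Mb, gave 2.90, 1.35 and 1.65. For the boundary-side end of the desert with the Sox9 block the values were 2.79 in ∆BorC1, 1.10 by sequence and 2.04 by position.

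The highest pairs of InvC∆Bor with the Sox9 gene side lay at the mirrored end. The inversion moves the block 112.40 to 112.45 Mb away from Sox9. It stood at 2.09 (1.89 to 2.29) with the block 112.96 to 113.01 Mb and 2.06 (1.89 to 2.23) with the Sox9 block. ∆BorC1 had 1.16 and 1.18 for the same sequence and 2.35 and 2.29 at the same position. These pairs were nearer to ∆BorC1 by position than by sequence, and ∆BorC1 was higher at that position, with overlapping intervals. The next pair, 112.45 to 112.50 Mb with 112.96 to 113.01 Mb, stood at 2.04 (1.84 to 2.26) in InvC∆Bor. ∆BorC1 had 2.56 (2.36 to 2.78) at the same position, with no overlap.

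Set against the same shares over all pairs, 7.23% higher and 5.69% lower, pairs of the desert with the Sox9 gene side were lower in 101 and higher in 33 of 220, with a median log2 difference of -0.50 against 0.02 over all pairs. Pairs of the desert with the Kcnj2 side were higher in 58 and lower in 21 of 198, with a median of 0.22. Within the desert 9 of 231 were higher and 3 lower, below the share over all pairs, with a median of 0.01. No pair of these kinds passed the same fold between ∆BorC1-2 and ∆BorC1.

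Matched by position, fewer pairs differed: 2.57% of all were higher and 1.54% lower. Of the pairs with the Sox9 gene side 0 of 220 were higher and 42 lower, with a median of -0.42. Those with the Kcnj2 side were higher in 12 of 198 and lower in 0, with a median of 0.19. Within the desert 2 were higher and 4 lower. After matching by position the desert thus still met the Sox9 gene side less and the Kcnj2 side more in InvC∆Bor. The medians of the uninverted ∆BorC1-2 over ∆BorC1 had the same directions, at -0.15 with the Sox9 gene side and 0.12 with the Kcnj2 side. Part of the shift, above all with the Kcnj2 side, was thus also found between uninverted maps.

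Shares of raw contacts gave the same direction without a correction for distance. Of the contacts within and between the 3 parts, those of the desert with the Sox9 gene side made up 19.7% in ∆BorC1 and 15.8% in InvC∆Bor. The second share was 0.798 times the first (0.793 to 0.804), whereas ∆BorC1-2, ∆BorC1-4 and ∆CTCF had ratios from 0.875 to 0.924 to ∆BorC1. Those of the desert with the Kcnj2 side made up 12.1% and 14.4%, a ratio of 1.19 (1.18 to 1.20), against 1.01 to 1.12 in the uninverted libraries. Contacts within the desert made up 41.4% and 41.6%, and those within the Sox9 gene side 14.1% and 15.5%. By raw share the value of InvC∆Bor lay outside the range of the 4 uninverted libraries for both kinds of desert contact. In observed over expected contact this held for the Sox9 gene side only, at 1.10 against 1.25 to 1.35. With the Kcnj2 side InvC∆Bor stood at 1.20, within the uninverted range of 1.07 (∆BorC1) to 1.24 (∆CTCF).

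**Figure D3:**
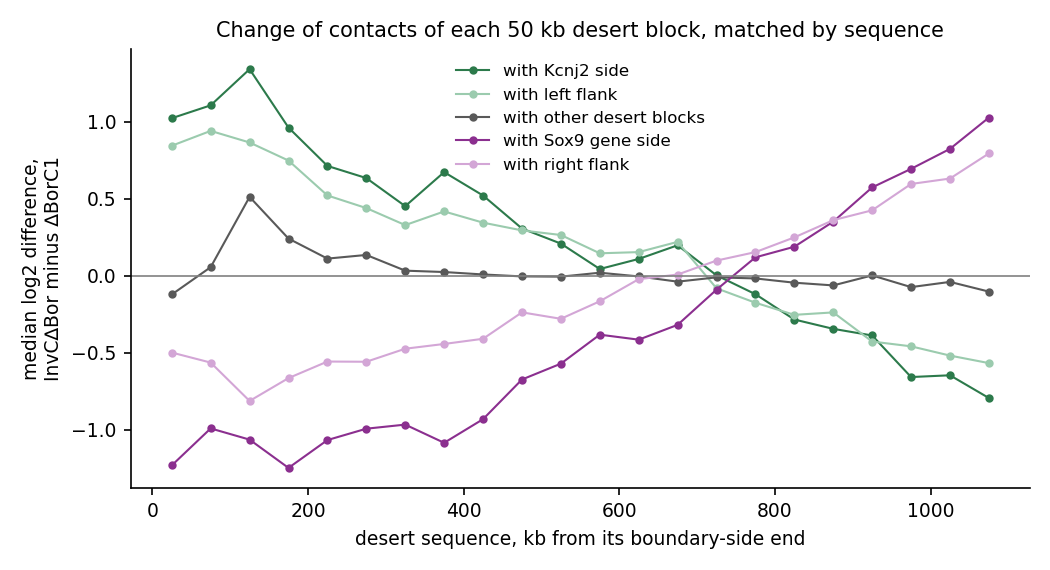
Median log2 difference, InvC∆Bor minus ∆BorC1, of the observed over expected contact of each of 22 desert blocks of 50 kb with 5 parts of the map, matched by sequence, against kb from the boundary-side end of the desert. Values above 0 are higher in InvC∆Bor. Contacts with the Kcnj2 side run from 1.34 near the boundary-side end to -0.79 at the Sox9-side end, those with the Sox9 gene side from -1.25 to 1.03, and those within the desert run from -0.12 to 0.24 apart from 1 block at 0.51.

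Block by block, the difference was graded along the sequence. The median difference with the Kcnj2 side was above 0 in 15 of 22 desert blocks and lowest, at -0.79, in the last block next to Sox9 in the reference. With the Sox9 gene side it was below 0 in 15 of 22, from -1.25 near the boundary-side end to 1.03 at the other. Apart from blocks between 112.05 and 112.15 Mb, both flanks outside the interval had differences of the same sense as the side next to them. The ranges were -0.57 to 0.94 on the left and -0.81 to 0.79 on the right. Among contacts with other desert blocks the block 111.50 to 111.55 Mb had the highest median, 0.51, and the next, 111.55 to 111.60 Mb, had 0.24.

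Among single pairs, the lowest difference inside the interval joined 111.40 to 111.45 Mb with 112.66 to 112.71 Mb, just beyond Sox9, at 2.07 in ∆BorC1 and 0.662 in InvC∆Bor, a log2 difference of -1.65. Inversion brought these blocks from 1255 to 215 kb apart. The raw contacts were 653 and 683, so the shallower library had as many contacts in number at the shorter distance. The largest differences of all, -1.96 and 1.67, joined the far left flank to an end of the desert and rested on 16 to 60 contacts.

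The likeness of the 2 maps was then taken over pairs of 10 kb bins as Pearson's r of log2 observed over expected. Neighbouring pairs share bins, library and domain, so r describes the maps and is no test. Pairs of the desert with the Sox9 gene side had r = -0.003 by sequence and 0.604 by position (5558 and 5507 pairs). Pairs with the Kcnj2 side had -0.141 and 0.395. Within the desert, where distances do not change, r was 0.392 by sequence and 0.298 by position, and uninverted libraries had 0.505 to 0.553. In blocks of 50 kb the within-desert values were 0.727 and 0.620, against 0.859 to 0.894 in uninverted libraries.

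The gap between both orders outside the desert closed once a trend with distance was removed. When a smooth trend with distance was taken out of each kind of pair, an alternative chosen after the data were seen, 50 kb pairs with the Sox9 gene side had r = 0.729 by sequence and 0.734 by position. Pairs with the Kcnj2 side had 0.491 and 0.549. When the mean of each block outside the desert was taken out as well, r was near 0 in either order: -0.003 and -0.030 with the Sox9 gene side, and -0.062 and 0.056 with the Kcnj2 side. The uninverted libraries kept 0.776 to 0.822 and 0.240 to 0.459 in the same calculation, and InvC kept 0.568 and 0.615 with InvC∆Bor. On that scale the map of InvC∆Bor was like that of ∆BorC1 neither by sequence nor by position.

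Within the desert the first of these steps widened the gap. Less the distance trend, r was 0.252 by sequence and -0.042 by position over 231 pairs. The uninverted libraries had 0.618 to 0.702, and InvC had 0.796 with InvC∆Bor.

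**Figure D4:**
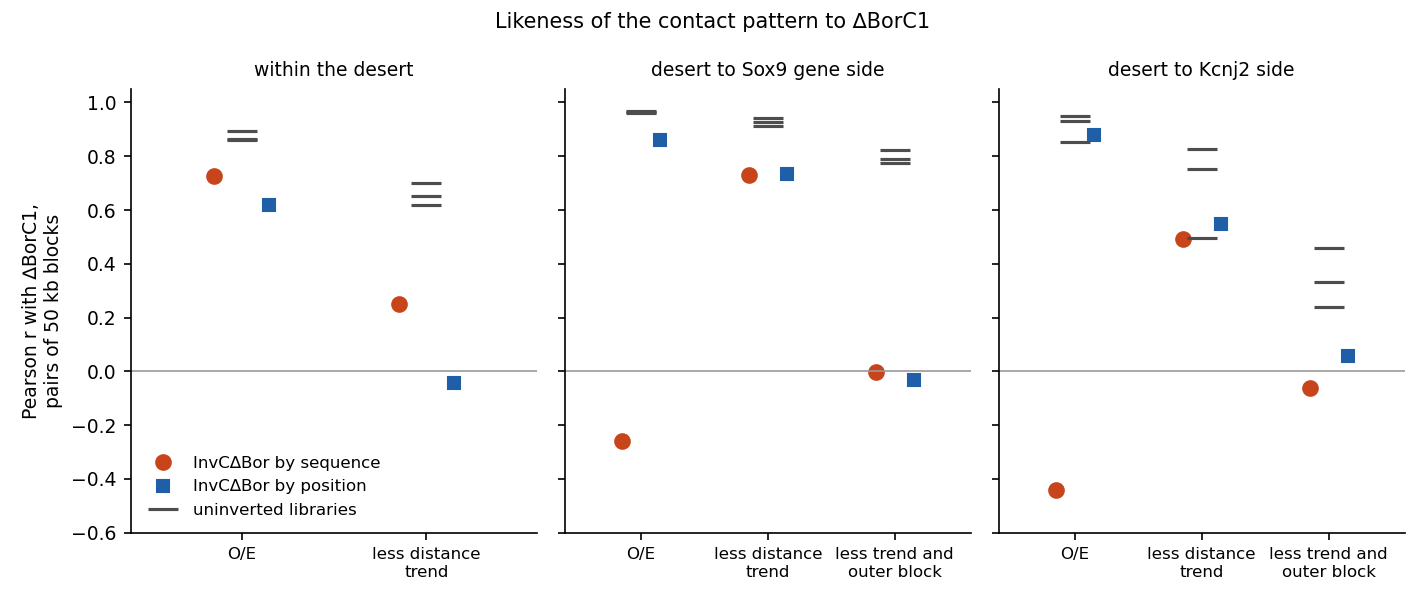
Pearson's r with ∆BorC1 over pairs of 50 kb blocks, for InvC∆Bor matched by sequence (circles) and by position (squares) and for the uninverted libraries (bars), by kind of pair; O/E is log2 observed over expected, then less a trend with distance, then also less the mean of each block outside the desert. Less the outer block means, InvC∆Bor is near 0 in both orders, below the uninverted libraries, and inside the desert it lies nearer to them by sequence than by position.

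Insulation was compared inside the desert because its window of 200 kb there holds only inverted sequence. The insulation score is the log2 of the mean contact across a place over the map's mean, and low values mark places that contacts cross less. Over 71 bins the score of InvC∆Bor correlated with that of ∆BorC1 at r = 0.464 by sequence and 0.369 by position. This order was not stable: it turned with a 300 kb window (0.333 and 0.459) and with ∆CTCF in place of ∆BorC1 (0.546 and 0.648). With ∆BorC1-2, r was 0.825 and 0.257, and InvC and InvC∆Bor had 0.949.

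The lowest scores of InvC∆Bor lay at sequence that also scored low in the uninverted libraries. At 112.04 Mb, the lowest point of ∆BorC1 in the desert, the score was -0.26 in ∆BorC1 and -0.25 in InvC∆Bor, where this sequence lies at 111.85 Mb. At the place 112.04 Mb itself InvC∆Bor had -0.05, and ∆BorC1 had -0.11 at the place of the InvC∆Bor dip. The uninverted libraries ran from -0.37 (∆BorC1-2) to -0.11 (∆BorC1-4), and InvC had -0.26. The dip lies to the left of the drop in the Sox9 profile at 112.10 Mb, which was not found in InvC∆Bor.

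The second dip of InvC∆Bor, at 111.82 Mb, was shallower, with -0.09 in InvC∆Bor and InvC. The uninverted libraries had -0.16 (∆BorC1), -0.12 (∆BorC1-2), -0.15 (∆BorC1-4) and -0.23 (∆CTCF) at the same sequence. At the same position ∆BorC1 had -0.23, so its score was low in ∆BorC1 in both orders.

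The second dip of ∆BorC1, at 111.75 Mb, was not shared. Its score was -0.19 in ∆BorC1, -0.03 in InvC∆Bor by sequence and -0.08 in InvC∆Bor by position, and it was 0.02 in ∆BorC1-2, -0.01 in ∆BorC1-4 and -0.05 in ∆CTCF. It lies beside the bin at 111.76 Mb whose contact with Sox9 was also high in ∆BorC1 alone among the uninverted libraries. For scale, at 234 flank bins the difference between InvC∆Bor and ∆BorC1 had an SD of 0.04 and a largest size of 0.14.

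**Figure D5:**
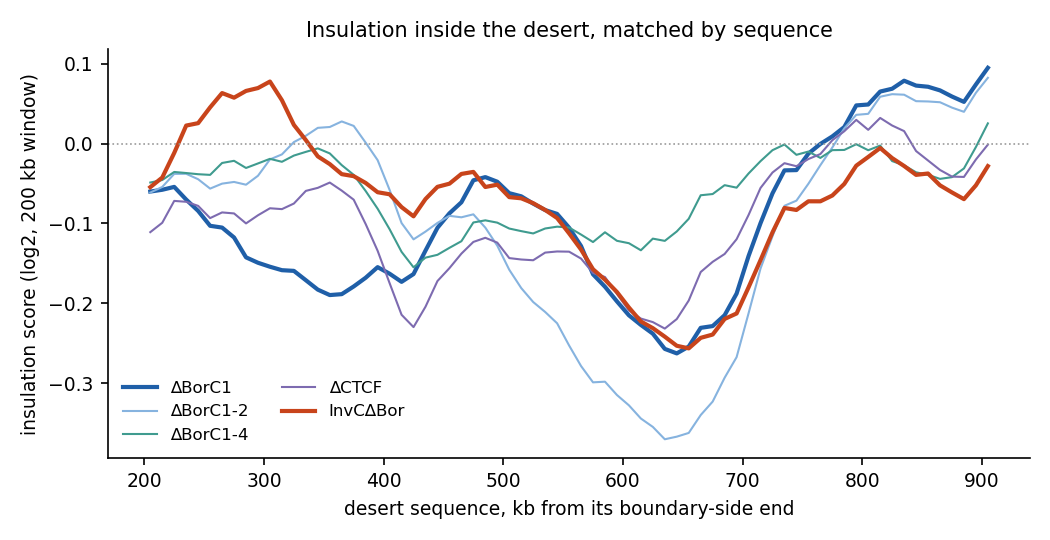
Insulation score (log2, 200 kb window, balanced contacts) inside the desert against sequence in kb from its boundary-side end, 1 line per library. InvC∆Bor and ∆BorC1 share the lowest dip of ∆BorC1, at -0.25 and -0.26, while its second dip, at -0.19 and nearer to the boundary-side end, is at -0.05 or higher in the others.

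Places on opposite outer sides of the inversion keep their distance. Contacts of the Kcnj2 side with the Sox9 gene side were 3.82% and 3.76% of the total, and the quotient was 0.985 (0.970 to 1.00), below the 1.03 to 1.12 of the other uninverted libraries. The pair Kcnj2 with Sox9 stood at 3.65 times expectation in ∆BorC1 (3.27 to 4.07; 330 contacts) and at 3.65 in InvC∆Bor (3.21 to 4.13; 250 contacts), below the 4.30 to 5.64 of the other uninverted libraries. Kcnj2 and the domain edge stood at 5.08 (4.55 to 5.67) and 4.13 (3.59 to 4.73), with overlapping intervals. The other uninverted libraries had 5.22 to 5.84 for this pair, so InvC∆Bor lay below all 4 on this scale. The raw contacts were 326 of 4901143 in ∆BorC1 and 211 of 3056502 in InvC∆Bor. By share of raw contacts, neither this pair nor Kcnj2 with Sox9 was lower in InvC∆Bor than in ∆BorC1. Both were lower than in the other uninverted libraries. Observed over expected values also depend on each library's own mean at that distance. Sox9 and the domain edge stood at 2.86 and 2.97.

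The 90 block pairs of both outer sides had lower observed over expected contact in InvC∆Bor. The median log2 difference was -0.29 against 0.02 over all pairs, with 2 of 90 past 1.5-fold. Not divided by the expected contact, the share of balanced contacts joining both sides was 0.965 times that of ∆BorC1. The r of these block pairs with ∆BorC1 was 0.618, against 0.744 to 0.868 in the uninverted libraries. Within each side the maps were alike, with r = 0.960 on the Kcnj2 side and 0.990 on the Sox9 gene side. At the Sox9 bin the insulation score was -1.01 in ∆BorC1 and -0.79 in InvC∆Bor, but the window there reaches into the inverted sequence.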

How the data were processed

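Per the submitters' processing notes, reads were processed with Bowtie2 2.2.6 and Juicer on mm9; no read filter is named there. The authors deposited raw counts of contacts between 10 kb bins and KR (Knight-Ruiz) balanced values, a signal made from those counts within each library. Balanced values were used for observed over expected contact, components and insulation; raw counts for shares, ratios and intervals (exact Clopper-Pearson, exact Poisson or log-normal). Read pairs carry no molecular identifiers, so intervals cover counting error only.

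The expected contact at a distance was the mean of that library, in its own map order, over distances within 5%. Insulation was scaled to the mean of the same map order. Pairs under 20 kb apart, bins under 0.1 of the median coverage, their neighbours and the inversion ends were left out. Sox9 and Kcnj2 were placed from general knowledge of mm9, since no mm9 annotation was used here; gene neighbours come from RefSeq (GRCm38). Named pairs were, for each kind and library, the 3 highest pairs of 50 contacts or more separated by 100 kb or more, the 5 highest and 5 lowest differences and the 2 lowest insulation scores; those labelled as chosen after the data were seen fall outside this rule. The members, lists and rules were chosen with earlier results of these data known. The code was tested on simulated maps. Python 3.11.15, numpy 2.4.6, scipy 1.17.1 and matplotlib 3.10.9 were used.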

Additional observations from a re-analysis of the deposited data

How the results depend on the processing

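No paired analysis was possible because each genotype has 1 library and the labels carry no replicate numbers. Of 88 alternative values, 33 stayed within their counting interval (correlations within 0.05, counts within 1.5 times), 50 moved beyond that without changing direction and 5 turned; the cause of each was not tested unless its construction shows it. The best displaced mirror gave 0.270 for the order. For r by sequence minus r by position, within-desert contacts (0.094) became 0.640 with raw counts, 0.613 with thinned raw counts, 0.033 with ∆CTCF and 0.294 less distance trend. Contacts with the Sox9 gene side (-0.607) became -0.117 (raw), -1.12 (50 kb blocks), -0.099 (thinned), -1.05 (expected from outside the interval), -0.0053 (less distance trend) and, turned, 0.027 (also less outer block). Contacts with the Kcnj2 side (-0.536) became -0.0028 (raw), -1.32 (50 kb), -0.015 (thinned), -1.08 (outside), -0.711 (∆BorC1-2), -0.058 (less distance trend) and -0.118 (also less outer block). Raw counts keep each bin's coverage, which moves with the sequence. Insulation (0.095) became 0.497 (100 kb), 1.41 (raw) and 0.568 (∆BorC1-2) and turned to -0.126 (300 kb) and -0.101 (∆CTCF).

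The position component of the Kcnj2 side (0.71) became 0.68 (raw), 0.93 (outermost segments), 0.65 (beyond 100 kb), 0.79 (no bins left out), 0.66 (∆BorC1-2) and 0.69 (∆CTCF), and its sequence component (0.15) 0.0588, 0.23, 0.18 (no bins left out), 0.10 and 0.12. For the Sox9 gene side position (-0.60) became -0.58 (raw), -0.80 (outermost segments), -0.53 (beyond 100 kb), -0.67 (no bins left out) and -0.64 (∆BorC1-2), and sequence (0.07) turned to -0.0172 (raw) and became 0.11 (outermost segments), 0.0831 (no bins left out) and 0.0247 (∆BorC1-2). In raw counts, added after the data were seen, sequence components became 0.121 (Kcnj2), 0.0121 (Sox9), 0.112 (domain edge) and 0.127 (left flank) and turned to -0.0743 (right flank). The Kcnj2 share differed by -16.3 percentage points, and by -14.5 against ∆BorC1-2; the Sox9 share differed by 19.6 and kept within its interval. The ratio of outer contacts (0.985) became 0.965 (KR), 0.953 (∆BorC1-2) and 0.948 (∆CTCF). Desert pairs past the fold, 225 of 649 by sequence, became 89 at 2-fold, 52 of 154 in 100 kb blocks and 60 of 649 by position. Depth limits single pairs: 250 contacts in InvC∆Bor lie behind the value for both genes. C1 was not separated from orientation.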
